A study of Mus musculus with 29 samples.

Results

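Binding of the glucocorticoid receptor (GR) and of C/EBPβ was examined around the mouse genes Angptl4 and Lpin1. All ChIP-seq peaks and ChIP-exo borders centred in a window on mm9 chromosome 17 (Angptl4) or chromosome 12 (Lpin1) were taken. The 2 windows held 86 of the 107997 peaks in 9 ChIP-seq lists and 526 of the 255667 borders in 6 ChIP-exo lists. Of these, 32 peaks and 132 borders lay in the Angptl4 window of 110 kb, and 54 peaks and 394 borders in the Lpin1 window of 220 kb. The Angptl4 window runs from 51.8 kb below to 58.2 kb above the centre of its leading GR region (33911701 to 33911953), and the Lpin1 window from 135 kb below to 84.6 kb above that of its own (16625335 to 16625564).

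Angptl4 encodes a secreted protein that inhibits lipoprotein lipase, the enzyme that releases fatty acids from circulating triglycerides. Lpin1 encodes lipin 1, which converts phosphatidate to diacylglycerol during triglyceride synthesis and also acts in the nucleus as a coactivator of fatty acid oxidation genes. Both genes are known to be induced in liver by glucocorticoids and by fasting. GR is a nuclear receptor that binds DNA as a dimer at palindromic elements and also near other factors. C/EBPβ is a bZIP transcription factor abundant in hepatocytes.

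The samples were whole livers of male mice of 12 weeks on a 12 h light cycle, back-crossed towards BALB/c. They were either GR+/+ (wild type, WT) or litter-mates with GRdim, a mutant form of the receptor with impaired dimerization. Each genotype was sampled untreated at 6am, when the light phase began, untreated at 6pm, when the dark phase began, and at 6am after 24 h with subcutaneous prednisolone pellets (12 mg/kg), a synthetic glucocorticoid. All 6 groups have GR ChIP-seq and GR ChIP-exo, a variant in which exonuclease digestion up to the protein marks where it covers the DNA. C/EBPβ was profiled by ChIP-seq in the 3 WT groups.

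Each list was 1 pool of 2 replicates, so neither a replicate spread nor a p-value can be given, and the intervals below cover counting error only. The sources used here do not say whether the replicates were separate animals. In whole tissue, fewer cells with a bound site and less binding per cell cannot be told apart. The files hold no expression values, so the tissue label was not checked against marker genes. The GR lists held 3183 to 14270 peaks and the C/EBPβ lists 21644 to 26226. The ChIP-exo libraries held 31600000 to 55700000 tags, with GRdim at 6am the smallest and WT at 6am the largest.

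Regions are given by mm9 position, counted from 1, since no annotation of that build was used, and no statement of promoter, exon or intron is made. In the RefSeq annotation of GRCm38.p6 the genes next to Angptl4 are the lncRNA Gm17251 and Kank3, followed by Rab11b and Rps28. Next to Lpin1 are the lncRNA Gm48606 and Ntsr2, followed by Greb1. A peak in a window is therefore near the named gene but was not assigned to it.

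GR peaks that overlapped by at least 1 bp were joined over the 6 lists. This gave 4 regions at Angptl4, called A1 to A4, and 8 at Lpin1, called L1 to L8, numbered by rising position. All 12 were listed in WT under at least 1 condition, and 7 of 12 in GRdim as well, against 48.4% of the 15329 merged regions of the whole series listed in both genotypes. No region was listed in GRdim alone. The share of all merged regions listed in GRdim alone was not computed. Over the whole lists, a WT peak of the same condition overlapped 86.2%, 94.7% and 65.1% of GRdim peaks at 6am, 6pm and with prednisolone. The 3 regions in all 6 GR lists were A2 (chromosome 17, 33911701 to 33911953), L4 (chromosome 12, 16625335 to 16625564) and L6 (chromosome 12, 16637226 to 16637529). Of all merged regions, 10.1% were in all 6 lists.

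The 6pm lists, the longest, also held the most peaks in the Lpin1 window in WT. At Angptl4 there were 3 WT peaks at 6am, 3 at 6pm and 1 with prednisolone, and 1, 3 and 1 GRdim peaks. At Lpin1 the WT lists held 4, 8 and 5 peaks and the GRdim lists 2, 3 and 3. Of the 7 WT peaks of 6am in both windows, 3 were overlapped by a GRdim peak, against 47.5% of all WT peaks of 6am. At 6pm 5 of 11 were found (49.4% of all) and after prednisolone 4 of 6 (48.5% of all). These shares lie near those of the whole lists.

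The strongest region was L4 at Lpin1. The authors' score per peak, whose unit is not given, was 19.83 for WT in the 6am list, 22.22 in the 6pm list and 18.39 in the prednisolone list. That placed the region 7th of 5781, 11th of 14270 and 10th of 4304 peaks. In GRdim its scores were 6.73, 10.05 and 7.10, at ranks 76 of 3183, 30 of 7440 and 15 of 3208. It thus stood among the top 100 peaks of every GR list, in both genotypes. In each genotype the 6pm score stood above the other 2.

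Region L6, 11.9 kb from L4, had WT scores of 12.83, 12.90 and 10.55 in the same order. These placed it at ranks 71 of 5781, 228 of 14270 and 159 of 4304. Its GRdim scores were 2.06, 3.76 and 2.68, at ranks 2972 of 3183, 1925 of 7440 and 1439 of 3208. L6 thus stood near the end of the GRdim list at 6am but not at 6pm or with prednisolone, and ranked lower than L4 in every list.

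At Angptl4 the strongest region was A2. Its WT scores were 9.48, 14.84 and 11.18 in the order 6am, 6pm and prednisolone, at ranks 169, 140 and 139. The GRdim lists gave 2.28, 4.92 and 2.30, at ranks 2415 of 3183, 870 of 7440 and 2171 of 3208. As at L4, the 6pm list held the highest score in each genotype.

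Of the remaining regions in 3 or more lists, L8 (chromosome 12, 16640098 to 16640348) scored 6.97, 10.12 and 4.54 in WT and only at 6pm in GRdim, with 2.53. A4 (chromosome 17, 33965850 to 33966070), 54.1 kb from A2, scored 2.17 at 6am and 6.29 at 6pm in WT and 2.21 at 6pm in GRdim. After prednisolone it was in neither list. L1 (chromosome 12, 16596781 to 16597010) had the reverse pattern: it was absent at 6am in both genotypes and was listed after prednisolone with 4.05 in WT and 2.90 in GRdim, besides 3.47 in WT at 6pm. The other 6 regions held 9 peaks with scores of 2.06 to 6.10.

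**Figure D1:**
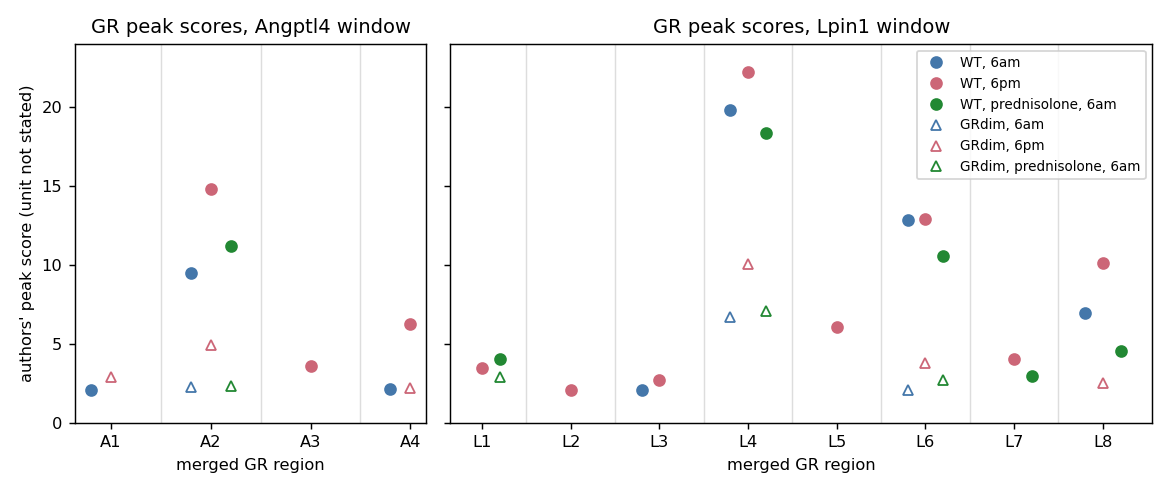
Scores the authors gave to GR peaks (vertical axis, unit not stated) at the 4 Angptl4 and 8 Lpin1 regions, with filled circles for WT, open triangles for GRdim and colours for the conditions. A missing symbol means that no peak was listed. L4, L6 and A2 carry all 6 symbols, and at each of them the 3 WT symbols lie above the 3 GRdim ones; scores come from separate lists and were not tested against each other.

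ChIP-exo showed how the DNA at these peaks was covered. A border is a feature of 10 bp on 1 strand, with a plus-strand border at the left edge of a protected stretch and a minus-strand border at its right edge. Its signal is given as tags or as the authors' RPM, the tags scaled to the size of the library. Borders lay close to the GR peaks: of 118 WT borders at Lpin1 at 6am, 63 were within 100 bp of the centre of a region, 52 between 100 and 500 bp away and 3 beyond 500 bp. At Angptl4 the figures were 26, 8 and 1 of 35.

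At L4 the borders within 100 bp of the centre held 2638 tags (47.3 RPM) for WT in the 6am library, 3002 (69.6 RPM) at 6pm and 2709 (49.5 RPM) with prednisolone. In GRdim they held 135 tags (4.27 RPM), 489 (11.2 RPM) and 380 (8.41 RPM). Every WT value stood above every GRdim value. In the 6am libraries the WT signal was 11.1 times that of GRdim (95% exact conditional interval 9.33 to 13.3). The 6pm ratio was 6.24 (5.67 to 6.88) and the prednisolone ratio 5.89 (5.29 to 6.57).

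At L6 the sums were 1045 tags (18.8 RPM), 766 (17.8 RPM) and 880 (16.1 RPM) in WT. In GRdim 25 (0.790 RPM), 69 (1.57 RPM) and 44 tags (0.974 RPM) were listed. The ratios were 23.7 (16.0 to 36.8), 11.3 (8.81 to 14.7) and 16.5 (12.2 to 22.9). They exceeded those at L4 in every condition, with factors of 2.14 (1.38 to 3.44), 1.81 (1.38 to 2.39) and 2.80 (2.03 to 3.96).

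At A2 the WT libraries held 609 tags (10.9 RPM), 895 (20.8 RPM) and 762 (13.9 RPM). No GRdim border was listed there at 6am, in a library whose weakest listed border held 4 tags, so no ratio is given. At 6pm GRdim held 146 tags (3.33 RPM), a ratio of 6.23 (5.22 to 7.47), and after prednisolone 38 tags (0.841 RPM), a ratio of 16.6 (12.0 to 23.6). Within WT the A2 signal was 1.90 times as high at 6pm as at 6am (1.71 to 2.11) and 1.27 times after prednisolone (1.14 to 1.42). At L4 the same comparisons gave 1.47 (1.40 to 1.55) and 1.05 (0.991 to 1.10), the latter not distinguishable from 1 by counting error. L6 differed from both: its WT signal was 0.947 times that of 6am at 6pm (0.862 to 1.04) and 0.858 times with prednisolone (0.784 to 0.939). At L8 the WT values were 1.04 (0.884 to 1.22) and 0.689 (0.581 to 0.817). In GRdim, L4 gave 2.62 (2.16 to 3.19) and 1.97 (1.62 to 2.42), and L6 gave 1.99 (1.24 to 3.29) and 1.23 (0.738 to 2.10). At L4 the GRdim libraries listed 6 borders at 6am, 15 at 6pm and 15 after prednisolone. Ratios between conditions were not set beside those of all regions or scaled another way. They are therefore not read as particular to these regions.

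The ratios of WT to GRdim were set beside all regions with a peak and a border in both genotypes. The median ratio was 2.31 at 6am over 2218 regions, 1.85 at 6pm over 5395 and 1.00 after prednisolone over 2013. L6 was at or above 98.6%, 95.3% and 98.1% of those regions, L4 at or above 93.4%, 87.2% and 92.4%, and A2 at or above 87.2% at 6pm and 98.2% after prednisolone. Scaled to the tags in listed nuclear borders in place of the whole library, the L4 ratios were 2.89, 2.21 and 2.93 and those of A2 2.20 and 8.24. That scaling moves all regions of a condition by 1 factor and leaves their order as it is. Sums hold listed borders only, so weak borders of either library are missing from them.

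**Figure D2:**
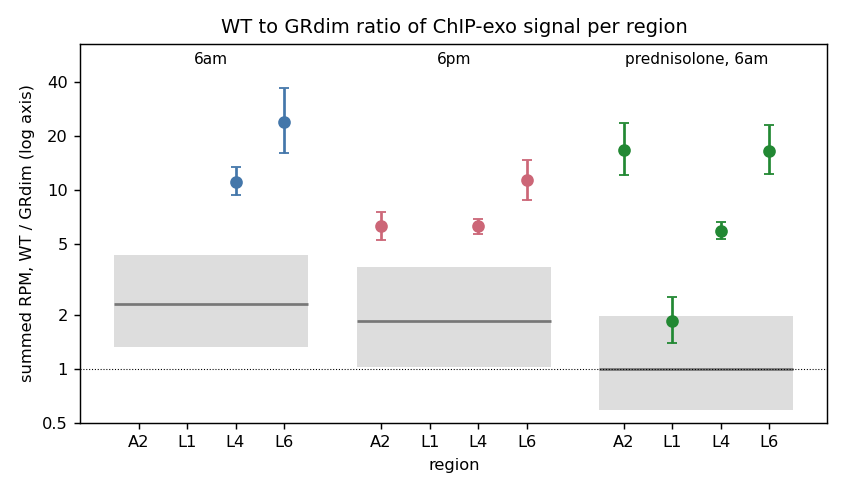
Ratio of summed ChIP-exo RPM within 100 bp of the region's centre, WT over GRdim, on a log axis, for regions with a peak and borders in both genotypes. Bars are 95% intervals of counting error, grey bands span the 25th to the 75th percentile of all such regions and the grey line is their median. A2, L4 and L6 lie above the band in every condition in which they have a value, while L1 after prednisolone (1.86) lies inside it.

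Neighbouring regions did not share the ratio in every condition. A1 (chromosome 17, 33911260 to 33911462), centred 0.466 kb from A2 and chosen for this comparison after its values were seen, held 38, 75 and 45 tags in WT and 20, 70 and 47 in GRdim. Its ratios were 1.08 (0.612 to 1.96), 1.09 (0.776 to 1.53) and 0.791 (0.514 to 1.22), none distinguishable from 1 with RPM scaled to the whole library. Scaling to the tags in listed nuclear borders took the A2 ratio at 6pm from 6.23 to 2.20 and would lower those of A1 too. Its values for A1 were not computed, so equal signal in the genotypes at A1 depends on the scaling. The ratio at A2 exceeded that at A1 by a factor of 5.71 (3.88 to 8.41) at 6pm and 20.8 (12.0 to 36.5) after prednisolone. In the peak lists A1 scored 2.06 in WT at 6am and 2.88 in GRdim at 6pm. It was thus a peak in both genotypes under no condition, and in neither after prednisolone. Its sums rest on 3, 4 and 3 listed borders in WT and 2, 6 and 4 in GRdim. How far the listing threshold moves the A1 ratios and the factors between A2 and A1 was not tested.

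A similar contrast was seen at Lpin1. L5 (chromosome 12, 16625767 to 16625966), centred 417 bp from L4, was a peak in WT at 6pm alone, with a score of 6.10. It held 144, 90 and 91 tags in WT and 14, 42 and 75 in GRdim, where 1, 3 and 7 borders were listed. Its ratios were 5.84 (3.37 to 10.9), 2.18 (1.49 to 3.22) and 1.00 (0.730 to 1.38). The ratio at L4 was larger than at L5 by 2.86 times (1.91 to 4.23) at 6pm and 5.87 times (4.18 to 8.22) after prednisolone, but not distinguishably so at 6am (1.90, 0.986 to 3.40). At L1, listed in both genotypes after prednisolone, WT held 153 tags (2.80 RPM) and GRdim 68 (1.51 RPM), a ratio of 1.86 (1.39 to 2.51). The ratios of L5 and L1 use RPM scaled to the whole library. Scaling to the tags in listed nuclear borders took the L4 ratios to 2.89, 2.21 and 2.93. It would lower those of L5 and L1 by the same factors. Values for L5 and L1 were not computed, so a WT excess at either depends on the scaling.

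L8 had listed ChIP-exo borders in WT alone. Its WT sums were 343 tags (6.16 RPM), 276 (6.40 RPM) and 232 (4.24 RPM), and no GRdim library listed a border there, although GRdim had a peak at 6pm. The WT libraries held 65, 117 and 17 tags at A4. In GRdim 10 tags were listed at A4 after prednisolone and no border at the other times. L2 held no border in any library.

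Around L6 the WT libraries also listed borders farther from the centre. More than 100 and up to 500 bp from the centre towards lower positions they listed 16, 10 and 18 borders with 387, 202 and 374 tags. On the side of higher positions there were 13, 10 and 13 borders with 240, 274 and 289 tags. The GRdim libraries listed 0, 0 and 2 borders on the lower side and 0, 2 and 3 on the higher side. The nearest part of this range lies inside the 304 bp of the region. Borders inside and outside the region were not counted apart.

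The positions of single borders recurred between libraries. Positions are given in bp from the midpoint of the region, taken at the centre of each border, with negative values towards lower positions. Over all 12 regions, 35 borders of WT at 6am had a border of the same strand within 5 bp in both other WT libraries, and 9 of these lay at 1 identical position in all 3. They were found at 4 regions with more than 1 such border: 9 at A2, 12 at L4, 9 at L6 and 4 at L8. The remaining one was at A4.

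Of these 35 recurring WT borders, 5 had a GRdim border within 5 bp at 6am, 16 at 6pm and 11 after prednisolone. Over all regions in the 3 WT lists, 22.9%, 42.6% and 36.2% of 6093 recurring WT borders were matched in the same libraries. At L4 the matches were 3, 7 and 7 of 12, at L6 2, 3 and 2 of 9, at A2 0, 6 and 2 of 9, and at L8 none of 4. With a match within 2 bp, 2, 10 and 6 of 28 recurring borders were matched, against 20.2%, 34.8% and 29.4% of 4038. The minus-strand border of L4 at position 24 was the 1 border found in all 6 libraries, at the same position in each.

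That border of L4 held 434, 558 and 367 tags in WT and 36, 105 and 54 in GRdim. The corresponding ratios of RPM were 6.84 (4.87 to 9.90), 5.40 (4.38 to 6.72) and 5.61 (4.21 to 7.62). At the other end of the region, the plus-strand border at position -82 held nearly as many WT tags, 433, 434 and 389. In GRdim no border was listed within 5 bp of it at 6am. The GRdim borders matched to it lay at -86 at 6pm and at -78 after prednisolone, both outside a 2 bp match. They held 33 and 20 tags, with ratios of 13.4 (9.37 to 19.7) and 16.1 (10.3 to 26.6).

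With borders matched within 5 bp, the genotype ratio differed between the ends of 1 region. The values for -82 rest on the GRdim borders at -86 and -78. It was larger at the plus-strand border at -82 than at the minus-strand border at 24 by a factor of 2.47 (1.62 to 3.85) at 6pm and 2.86 (1.65 to 5.15) after prednisolone. Against the plus-strand border at 10, which held 108 WT and 37 GRdim tags at 6pm, the factor was 4.49 (2.60 to 7.79), and 4.42 (2.35 to 8.48) after prednisolone. These borders were chosen after their values were seen. The minus-strand border at -70, which lay 12 bp from -82 at 6am and with prednisolone and was listed at -69 at 6pm, held 230, 174 and 270 WT tags. It had a GRdim match only after prednisolone, with 14 tags and a ratio of 15.9 (9.33 to 29.5).

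Within A2 a difference was found at 6pm between borders chosen after their values were seen. The minus-strand border at 32 held 111, 133 and 139 WT tags and had a GRdim match only at 6pm, with 14 tags and a ratio of 9.65 (5.56 to 18.1). The minus-strand border at -42 held 65, 103 and 58 WT tags against 28 in GRdim at 6pm and 17 after prednisolone, with ratios of 3.74 (2.44 to 5.90) and 2.82 (1.62 to 5.16). The GRdim border matched to it lay at -39 in both libraries, outside a 2 bp match, and every comparison below uses it. At 6pm the 2 ratios differed by a factor of 2.57 (1.24 to 5.58): the border at -42 held more tags than that at 32 in GRdim and fewer in WT. The plus-strand border at -52 held 103 WT and 12 GRdim tags at 6pm, and its ratio exceeded that at -42 by a factor of 2.33 (1.08 to 5.31). With prednisolone, the 1 comparison that could be made at A2, again of -52 with -42, gave 1.48 (0.619 to 3.63), not distinguishable from 1.

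**Figure D3:**
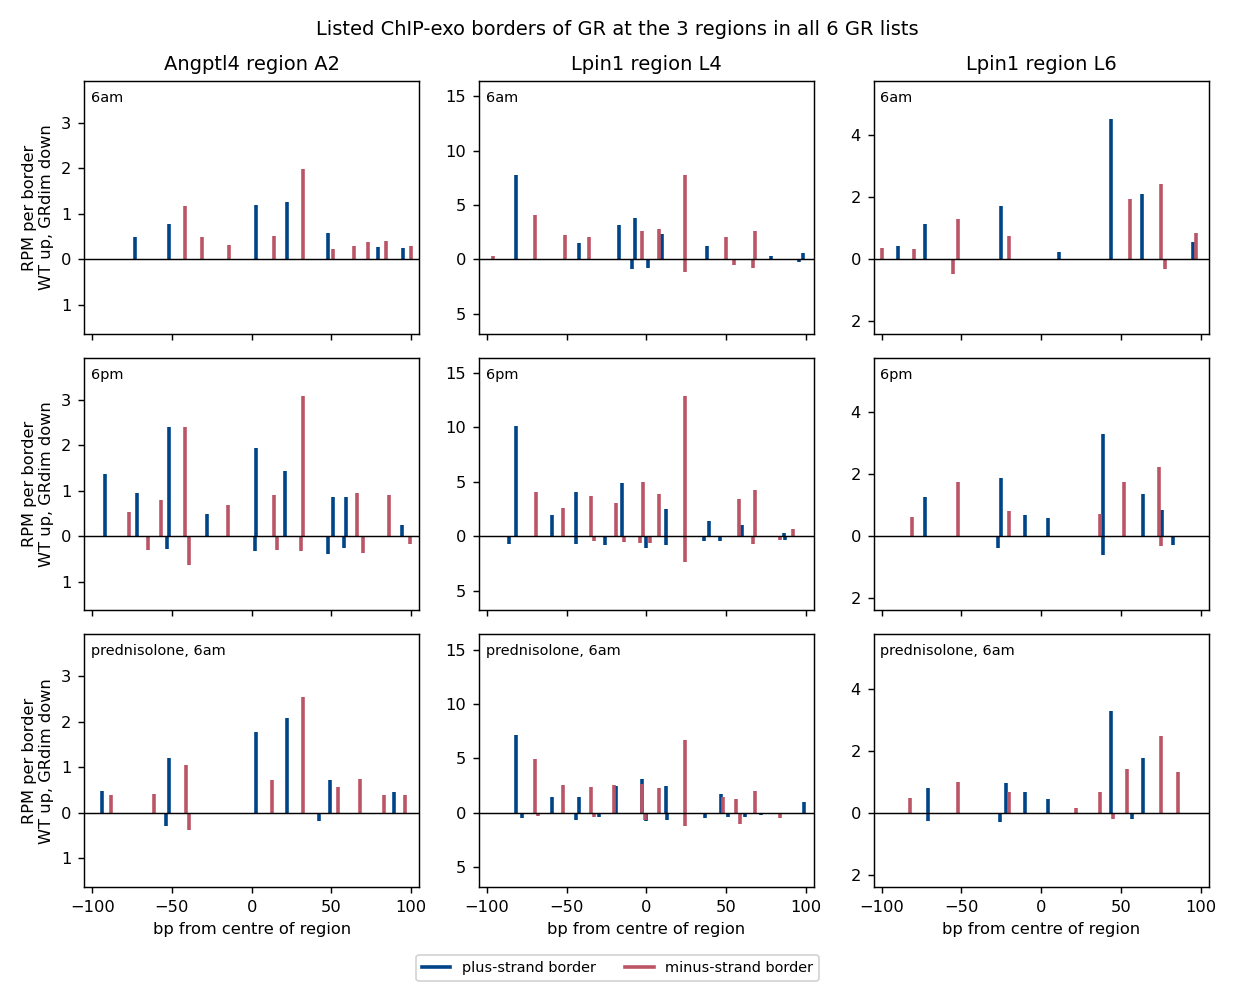
Listed ChIP-exo borders within 100 bp of the centre of A2, L4 and L6, with distance from the centre in bp on the horizontal axis and RPM per border on the vertical axis, WT drawn upwards and GRdim downwards on 1 scale. Blue lines are plus-strand and red lines minus-strand borders. In L4 the tall WT lines at -82 and 24 return in all 3 conditions, while in GRdim the line at 24 is the tallest in each row.

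Pairs of a plus-strand border and a minus-strand border to its right were then compared by genotype. The strongest borders of each strand were 106 bp apart at L4 in all 3 WT libraries, spanning positions -82 to 24. In GRdim they were 33 bp apart at 6am and 24 bp at 6pm and after prednisolone, with the minus-strand border at 24 in every case. At A2 the WT distances were 10, 84 and 10 bp. In GRdim no pair was listed at A2 at 6am, at 6pm the strongest minus-strand border lay 87 bp to the left of the plus-strand one, and after prednisolone the pair was 15 bp apart on 13 and 17 tags.

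At L6 the WT pair was 31, 35 and 31 bp apart, and in GRdim 36 bp at 6pm on 26 and 14 tags and 71 bp after prednisolone on 14 and 9 tags. At L8 the WT distances were 27, 29 and 28 bp. Over all 12 regions and 3 conditions, the WT libraries held 28 pairs 10 to 12 bp apart, 9 pairs 24 to 26 bp apart and 16 pairs 29 to 31 bp apart. The GRdim libraries held 8, 3 and 4 such pairs, from fewer borders. Within 100 bp of the centres, WT listed 26, 29 and 20 borders at Angptl4 and 63, 46 and 64 at Lpin1. GRdim listed 2, 18 and 8 at Angptl4 and 9, 22 and 32 at Lpin1. Pairs per border and the share over all regions were not computed, so the pair counts give no genotype difference in spacing.

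In WT, several of these pairs were nested, with a short pair at each end of a longer one. At A2 the plus-strand borders at 3 and 22 and the minus-strand borders at 14 and 32 formed pairs of 11 and 10 bp inside a pair of 29 bp at 6am. Their tags were 67 and 70 on the plus strand and 29 and 111 on the minus strand, so the outer minus-strand border led. The arrangement returned at 6pm and after prednisolone with the outer distance again 29 bp. At L6 the plus-strand borders at 44 and 63 and the minus-strand borders at 56 and 75 formed 2 pairs of 12 bp inside 31 bp at 6am, with 253, 117, 108 and 135 tags in that order. After prednisolone the outer distance was again 31 bp. L8 showed it at 6am (27 bp) and at 6pm (29 bp), and L4 in WT after prednisolone (27 bp).

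In GRdim 1 such nest was listed, at L4 at 6pm, from -44 to -14 with 21 to 36 tags per border. Nests were counted where the outer pair was 27 to 31 bp and both inner pairs 9 to 12 bp apart, a rule written after these regions had been seen. Among the listed regions, 3 of 7 in WT at 6am, 2 of 11 at 6pm and 3 of 6 after prednisolone held one, and 0 of 3, 1 of 6 and 0 of 4 in GRdim. Over all listed regions the shares were 5.15%, 1.07% and 8.41% in WT and 0.220%, 0.497% and 0.686% in GRdim. Finding 4 borders needs each of them to be listed, and the GRdim libraries listed fewer borders at these regions.

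C/EBPβ overlapped more than 50% of the WT GR peaks of these windows in each condition. Peaks of C/EBPβ from matching conditions lay over 4 of the 7 WT GR peaks of 6am in both windows (79.7% of all WT GR peaks of 6am), over 7 of 11 at 6pm (83.2% of all) and over 4 of 6 after prednisolone (75.7% of all). With 6 to 11 peaks per condition, the lower shares in the windows are not read as a difference from the whole lists, which was not tested. By region, 2 of the 4 at Angptl4 and 6 of the 8 at Lpin1 had such an overlap under at least 1 condition. The share of all WT regions overlapped under at least 1 of the 3 conditions was not computed. Neither count is therefore read as high or low. L4 was overlapped under all 3, by C/EBPβ peaks scoring 5.59, 7.39 and 5.46 and centred 2, 30 and 17 bp from the GR peak. L6 was also overlapped under all 3, with scores of 5.99, 5.94 and 3.91, but the centres were 110 to 125 bp apart.

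At A2, C/EBPβ was listed at 6am with 2.81 and at 6pm with 3.38, and was not listed after prednisolone. L8 was overlapped at 6pm alone (4.20), the condition with its highest GR score, and not at 6am or with prednisolone. C/EBPβ was listed over L1 (2.41) after prednisolone alone, when its GR peak was listed in both genotypes. A1, A3, L3 and L5 had no C/EBPβ peak in a condition in which WT GR was listed, although C/EBPβ lay over A1 at 6pm (2.64) and after prednisolone (2.33), and over L3 (2.37) and L5 (2.80) after prednisolone.

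The C/EBPβ list after prednisolone was longer at Lpin1. The Lpin1 window held 5, 9 and 15 C/EBPβ peaks at 6am, 6pm and with prednisolone, while the Angptl4 window held 6, 7 and 7. Of the 15 peaks after prednisolone, 10 had no peak at 6am, against 22.3% over the whole list. Of the 9 peaks of 6pm, 5 had none at 6am, against 22.9% over that list. Of the 15 peaks of the prednisolone list, 8 were at neither untreated time, against 14.3% over that whole list. At Angptl4 2 of 7 had no peak at 6am and 1 of 7 was at neither untreated time. None of the 5 Lpin1 peaks of 6am was absent after prednisolone, against 21.2% of all C/EBPβ peaks of 6am.

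The 8 Lpin1 regions listed after prednisolone alone had scores of 2.08 to 3.59, in the lower part of the list, and 3 of them lay over a GR region. The highest of the 8 (chromosome 12, 16542068 to 16542267), 83.3 kb from L4, scored 3.59 and lay 54728 bp from the nearest GR region.

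The highest C/EBPβ score at Lpin1 after prednisolone was outside every GR region. At chromosome 12, 16627160 to 16627394, centred 1.83 kb from L4, C/EBPβ scored 2.13 and 2.15 at the untreated times and 7.79 with prednisolone. It stood at rank 20081 of 21644, 24240 of 26226 and 2254 of 21941. No GR peak overlapped it in any list, and no ChIP-exo border was listed within 100 bp of its centre in any of the 6 libraries. At chromosome 12, 16606031 to 16606235, 19.3 kb from L4, C/EBPβ was not listed at 6am and scored 2.04 at 6pm and 4.52 after prednisolone, again with no GR peak and no border.

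At Angptl4 the highest C/EBPβ scores likewise lay away from GR, at chromosome 17, 33886470 to 33886674, with 5.99, 5.65 and 5.06 and the nearest GR region 24789 bp away. C/EBPβ scores at A2 itself were in the lower part of their lists. The highest C/EBPβ scores of 6am and 6pm at Lpin1 were at L6 (5.99) and L4 (7.39).

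**Figure D4:**
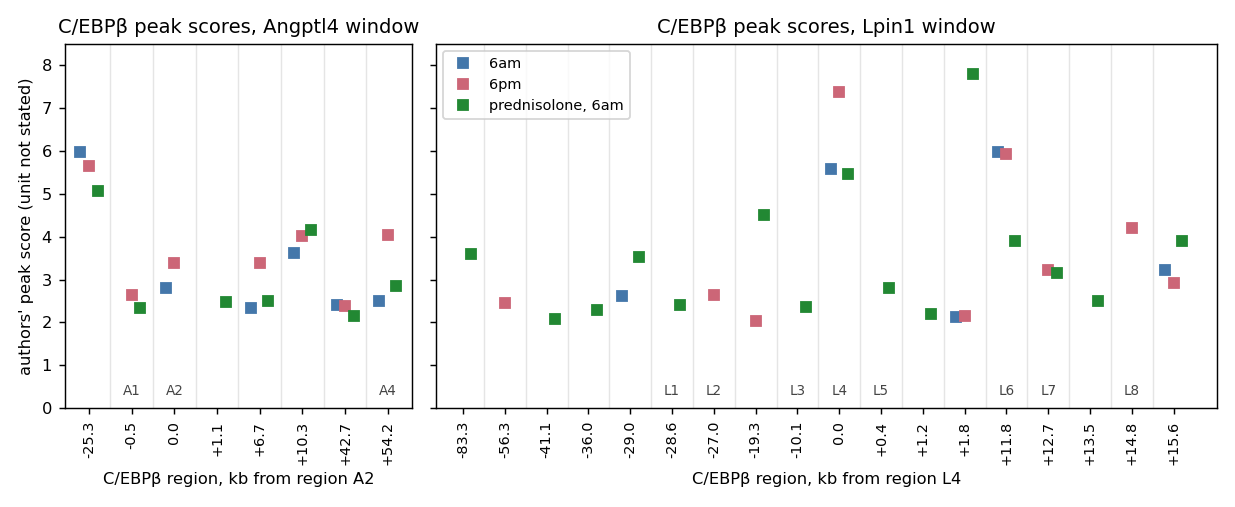
Scores the authors gave to C/EBPβ peaks of WT (vertical axis, unit not stated) at the 8 Angptl4 and 18 Lpin1 C/EBPβ regions, placed in order and labelled by distance in kb from A2 or L4, with colours for the 3 conditions and the overlapping GR region named at the foot. A missing square means that no peak was listed. At Lpin1, 8 regions carry a green square alone, and the region 1.83 kb from L4 stands at 2.13 and 2.15 untreated and at 7.79 after prednisolone.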

How the data were processed

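GR ChIP-seq and ChIP-exo (WT and GRdim) and C/EBPβ ChIP-seq (WT) were deposited as 1 list per condition, each pooling 2 replicates per the labels. Bowtie, HOMER and mm9 are named in the submitters' processing notes. Their roles, their versions and the calling threshold are not given there. The peak lists hold the authors' score per 200 bp peak, in an unstated unit. The ChIP-exo lists hold, per the file headers, a count of tags and an RPM value per border; a deposited height signal was not used. Library sizes came from tags divided by RPM.

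Peaks were joined at 1 bp of overlap. Border tags were summed within 100 bp of a region's midpoint. Ratios have 95% exact conditional binomial intervals (PCR copies are not independent molecules), and ratios of ratios conditional odds ratio intervals. Regions in at least 3 of 6 GR lists and the highest-scoring one per list and locus were named. Members, windows and lists were chosen with earlier results of these data known. The 5 bp match, the nests and the contrasts between borders or regions were chosen after seeing values. A list of lipid genes and peak sequences need mm9 sequence or annotation and were not used here. The 2 RNA polymerase II and 12 input samples were not analysed here. Alternatives were centres within 100 bp, higher-scoring 50%, equal list lengths, scaling to tags in listed nuclear borders, borders within 60 bp, at least 20 tags, closest opposite borders and, added later, a 2 bp match. The code was tested on simulated data. Intervals came from scipy 1.17.1, tables from pandas 2.3.3 with numpy 2.4.6, and plots from matplotlib 3.10.9, under Python 3.11.15.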

Additional observations from a re-analysis of the deposited data

Results flagged for a closer look

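At region L5 of Lpin1 the summed ChIP-exo signal moved in opposite directions in the genotypes between 6am and prednisolone. In WT it was 0.644 times as high after prednisolone as at 6am (95% interval of counting error 0.490 to 0.843), with 144 tags at 6am and 91 after prednisolone. In GRdim it was 3.75 times as high (2.10 to 7.19), with 14 and 75 tags. The 14 tags belong to 1 listed border at position -100, the edge of the window, in the smallest library. After prednisolone 7 borders were listed. The GRdim ratio therefore rests on 1 border at 6am and on which borders passed the listing threshold. The difference between the genotypes was not tested over samples, since each value is 1 pool, and no GR peak was listed at L5 under either condition in either genotype. The shift was not shown to be particular to L5. Over all regions with a peak and borders in both genotypes the median ratio of WT to GRdim was 2.31 at 6am and 1.00 with prednisolone, and at the neighbouring L4 the same comparison gave 1.05 (0.991 to 1.10) in WT and 1.97 (1.62 to 2.42) in GRdim.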

How the results depend on the processing

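No paired analysis was possible because each list pools its replicates. In the higher-scoring 50% of each list, 1 Angptl4 region was listed in both genotypes, and 1 Angptl4 and 3 Lpin1 regions of WT GR held C/EBPβ. With the 6 GR lists at equal length, 1 Angptl4 region was in both genotypes. The other counts stayed within 1.5 times. The ratio of WT to GRdim at L4 (6am, 6pm, prednisolone) was 2.89, 2.21 and 2.93 scaled to tags in listed nuclear borders and 13.3, 6.89 and 7.74 with borders of at least 20 tags. With borders within 60 bp it was 5.59 at 6pm and 5.22 after prednisolone. At A2 it was 2.20 at 6pm and 8.24 after prednisolone by listed nuclear borders, and 32.1 at 6pm with at least 20 tags, where GRdim kept 1 border. After prednisolone none was left there in GRdim. Every ratio stayed above 1. Between the closest opposite borders the A2 distances were 3, 7 and 5 bp in WT and 12 bp in GRdim at 6pm, in place of -87. At L4 they were 4, 6 and 1 bp in WT and 23, 2 and 8 bp in GRdim. Within 60 bp, which leaves out the border at -82, the L4 distances were 31, 39 and 27 bp in WT. With a 2 bp match, the recurring borders found in GRdim were 0, 4 and 1 at Angptl4 and 2, 6 and 5 at Lpin1, against 0, 6 and 2 and 5, 10 and 9. The causes of these shifts were not tested. GRdim at 6am was the smallest ChIP-exo library, and a border below the listing threshold cannot be told from an absent one.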
